A study of Mus musculus with 16 samples.

Results

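The genes described here are 48 ligands and receptors of axon guidance, taken from a fixed list: 14 Eph receptors, 7 ephrins, 11 semaphorins, 8 plexins and neuropilins, and 8 genes of the Slit, Robo, netrin and Dcc group. All 48 were found among the 22367 protein-coding genes of the annotation used, and all lie on autosomes. A region of a mark was assigned to a gene where it overlapped the gene body or came within 5 kb of any annotated transcription start site (TSS). The start of a gene was taken more narrowly, as the stretch within 2 kb of any of its TSSs.

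The data came from chromatin immunoprecipitation and sequencing (ChIP-seq) of 3 histone marks, H3K27Ac, H3K27Me3 and H3K4Me1, in mouse embryonic stem (ES) cells. The female (XX) cells were lines BCF3 and BCF4 and the male (XY) cells were lines BCM1 and BCM2, so that each sex stood on 2 lines per mark. With 1 IgG library and 1 input library for each sex, the labels name 16 samples. All lines were hybrids of C57BL/6 and CAST/EiJ, grown untreated in serum with LIF on inactivated embryonic fibroblasts, at passages that the labels give as 7 to 10. The deposited values are 6 lists of regions, 1 per sex and mark, which hold positions alone, without read counts, scores or replicates. Every difference between the female and the male list below is therefore a difference between 2 lists, for which no error and no test can be given.

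Axon guidance ligands and their receptors steer growing nerve fibres and migrating cells by attraction and repulsion. Ephrins are cell-bound ligands of the Eph receptor tyrosine kinases, semaphorins signal through plexins and neuropilins, Slit proteins repel through Robo receptors, and netrin attracts through Dcc. Acetylated H3K27 is found at promoters and enhancers in use, H3K4Me1 at enhancers and along the flanks of promoters, and H3K27Me3 is laid down by Polycomb repressive complex 2, in ES cells above all at CpG-rich promoters of developmental genes that are silent and kept ready for later use. Regions of 2 marks that overlap in these lists come from populations of cells and need not lie on the same chromosome copy.

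The promoters of 6 genes are shown because the marks at their starts set apart the patterns described below. Epha4 carried H3K27Ac and no H3K27Me3 in both lists. At Ephb6 the promoter lay under H3K27Me3 in the female list alone. At Sema5a the male list alone had an H3K27Me3 region, which began in the last bases of the window and ran on into the gene. At Efna3 the promoter lay under H3K27Ac in the female list alone, and at Efna2 and Plxna2 in the male list alone. The choice of all 6 thus rests on their values in these lists. Sema5a and Plxna2 were chosen after those values had been seen. Each sequence is the RefSeq promoter of build GRCm38.p6, 250 bases before to 50 bases after a start site, read 5′ to 3′ on the strand of the gene, with every CpG dinucleotide in capitals. Found by exact match in mm9, the windows are chr1:77511614-77511913 on the minus strand for Epha4, chr6:41555260-41555559 on the plus strand for Ephb6, chr10:79641977-79642276 on the plus strand for Efna2, chr3:89126812-89127111 on the minus strand for Efna3, chr15:32174318-32174617 on the plus strand for Sema5a and chr1:196445773-196446072 on the plus strand for Plxna2.
Epha4: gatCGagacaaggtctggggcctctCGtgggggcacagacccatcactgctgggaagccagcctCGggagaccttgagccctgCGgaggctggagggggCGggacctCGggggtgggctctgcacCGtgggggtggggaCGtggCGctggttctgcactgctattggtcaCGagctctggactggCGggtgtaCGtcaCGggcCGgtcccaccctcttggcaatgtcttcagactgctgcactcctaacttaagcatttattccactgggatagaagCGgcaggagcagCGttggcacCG
Ephb6: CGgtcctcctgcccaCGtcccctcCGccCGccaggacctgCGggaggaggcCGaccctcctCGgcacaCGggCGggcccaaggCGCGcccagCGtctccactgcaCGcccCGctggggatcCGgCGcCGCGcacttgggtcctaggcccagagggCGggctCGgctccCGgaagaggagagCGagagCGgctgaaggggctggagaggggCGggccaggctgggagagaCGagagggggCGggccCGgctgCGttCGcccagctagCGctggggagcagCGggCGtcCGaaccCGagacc
Sema5a: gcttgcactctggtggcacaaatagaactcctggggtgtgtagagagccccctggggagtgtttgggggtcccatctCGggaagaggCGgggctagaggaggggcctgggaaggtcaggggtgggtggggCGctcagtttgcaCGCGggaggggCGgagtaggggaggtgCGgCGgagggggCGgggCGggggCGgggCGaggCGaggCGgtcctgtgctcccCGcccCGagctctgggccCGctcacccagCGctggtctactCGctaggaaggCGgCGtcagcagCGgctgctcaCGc
Efna3: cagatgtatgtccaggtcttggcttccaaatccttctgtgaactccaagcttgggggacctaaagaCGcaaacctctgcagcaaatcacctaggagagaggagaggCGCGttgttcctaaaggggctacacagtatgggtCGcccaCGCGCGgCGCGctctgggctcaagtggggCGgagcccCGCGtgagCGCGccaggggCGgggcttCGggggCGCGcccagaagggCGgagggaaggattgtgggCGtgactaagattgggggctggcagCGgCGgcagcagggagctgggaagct
Efna2: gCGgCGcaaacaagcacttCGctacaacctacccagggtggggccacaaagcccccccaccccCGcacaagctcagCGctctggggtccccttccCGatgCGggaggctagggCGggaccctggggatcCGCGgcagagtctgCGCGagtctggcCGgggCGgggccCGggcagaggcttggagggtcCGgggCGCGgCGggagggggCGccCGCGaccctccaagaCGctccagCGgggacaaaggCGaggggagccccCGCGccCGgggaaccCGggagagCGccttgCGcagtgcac
Plxna2: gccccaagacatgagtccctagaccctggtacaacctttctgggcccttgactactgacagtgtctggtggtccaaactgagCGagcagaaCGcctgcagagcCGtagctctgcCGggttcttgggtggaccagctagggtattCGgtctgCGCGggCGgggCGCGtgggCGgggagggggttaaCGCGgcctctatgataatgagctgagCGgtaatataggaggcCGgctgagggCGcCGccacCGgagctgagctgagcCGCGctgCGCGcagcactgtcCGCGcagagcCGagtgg

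The 6 windows held between 17 CpGs, in Epha4, and 34 CpGs, in Ephb6. Their GC content was 64.0% in Epha4, 76.3% in Ephb6, 74.7% in Efna2, 64.0% in Efna3, 71.3% in Sema5a and 64.7% in Plxna2. The hexamer GGGCGG, which contains a CpG, was searched on both strands and occurred in all 6 windows, with 5 copies in Ephb6, 4 in Sema5a, 3 in Efna3, 2 each in Efna2 and Plxna2 and 1 in Epha4. TATAAA, searched in the same way, was in none of the 6, and CCAAT occurred once each in Epha4 and Efna3. A RefSeq promoter was found for 40 of the 48 genes, those without being Efnb3, Sema3f, Sema6a, Plxna1, Plxna4, Slit1, Ntn1 and Dcc. The median ratio of observed to expected CpGs was 0.679 over the 40 genes (0.101 to 1.10) and 0.609 over 14831 genes with a located promoter. GGGCGG was found in 77.5% of the 40 promoters and in 48.5% of all promoters, TATAAA in 5.0% of the 40 and 12.9% of all, and CCAAT in 32.5% of the 40 and 39.2% of all. Efna5 had the highest CpG ratio (1.10), followed by Epha8 (1.06) and Epha5 (1.0). The windows of Sema4d (0.101), Sema4a (0.151) and Sema3a (0.162) were the lowest, and those of Sema4d and Sema3a lie at start sites 37.1 and 271 kb inside the longest gene model. A promoter is called under a mark where a region overlapped any of its bases. The 21 promoters under H3K27Me3 in both lists and the 17 under H3K27Ac in both lists had the same median CpG ratio, 0.681, against 0.579 and 0.659 where the mark was in neither list. Over all genes the medians were 0.681 for promoters under H3K27Me3 in both lists and 0.806 for those under H3K27Ac in both lists, against 0.564 and 0.254 where the mark was in neither list.

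H3K27Me3 was the mark whose count at these genes lay furthest above the share of all genes. In the female list, 40 of the 48 genes had H3K27Me3 at the start, where 32.9% of all protein-coding genes had it, and in the male list 39 had it, where 28.8% of all genes did. H3K27Ac at the start was near the background, at 24 genes in the female list (50.6% of all genes) and 25 in the male list (50.5% of all genes). H3K4Me1 was found at the start of 36 genes in the female list (60.6% of all genes) and of 39 in the male list (59.4% of all genes). The genes have a median of 3 annotated TSSs against 2 over all genes, so that the stretches searched at their starts were often more numerous, and the part of this in the counts was not tested. Within a window of equal size for every gene, 5 kb to either side of the 5′ end, the median H3K27Me3 coverage was 6.30 kb in the female list and 6.4 kb in the male list for the 48 genes, and 0 kb in both lists for all genes.

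**Figure D1:**
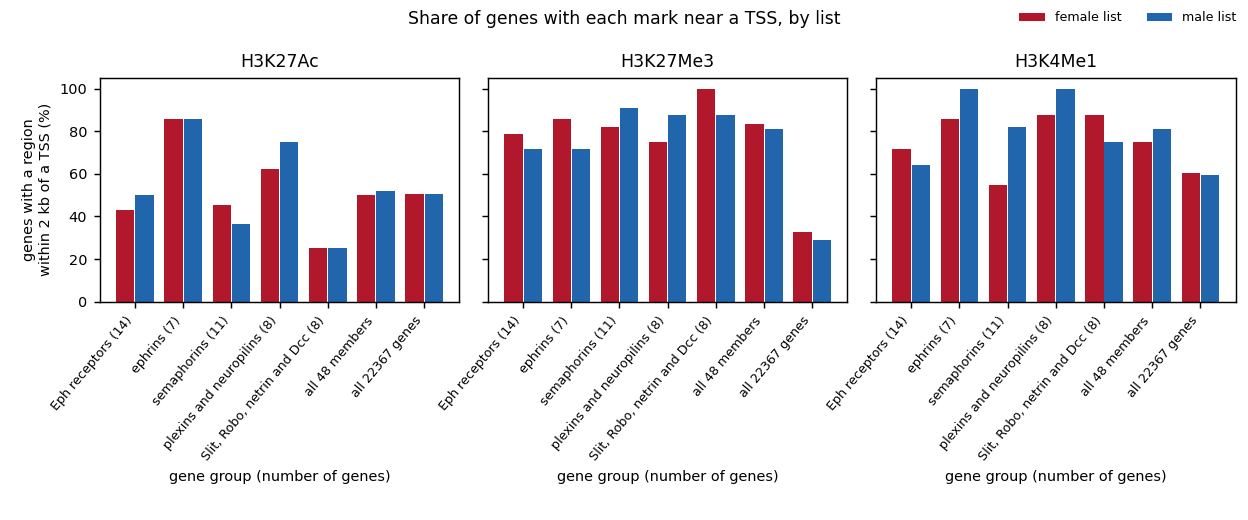
Share of genes (%, y axis) with a region of each mark within 2 kb of a TSS, in the female list (left bar, red) and the male list (right bar, blue), for the 5 groups of axon guidance genes, all 48 together and all 22367 protein-coding genes. H3K27Me3 reaches 71.4% or more of every group in both lists, against 32.9% and 28.8% of all genes, while H3K27Ac ranges from 25.0% in the Slit, Robo, netrin and Dcc group to 85.7% in the ephrins.

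The share at the start differed by group. All 8 genes of the Slit, Robo, netrin and Dcc group had H3K27Me3 at the start in the female list and 7 in the male list, and 2 of the 8 (Robo1 and Ntn1) had H3K27Ac there in both. Of the 7 ephrins, 6 had H3K27Ac at the start in each list, and 6 and 5 had H3K27Me3 in the female and the male list. Of the 14 Eph receptors, 11 and 10 had H3K27Me3 and 6 and 7 had H3K27Ac in the female and the male list. The 11 semaphorins had H3K27Me3 at 9 and 10 starts and H3K27Ac at 5 and 4 starts in these lists. The 8 plexins and neuropilins had H3K27Me3 at 6 and 7 starts and H3K27Ac at 5 and 6 starts.

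Taken by combination, 23 genes in each list had H3K27Me3 without H3K27Ac at the start, where 17.9% of all genes did in the female list and 16.1% in the male list. Both marks were present at 17 genes in the female list (15.0% of all genes) and at 16 in the male list (12.7% of all genes). H3K27Ac without H3K27Me3 was seen at 7 genes in the female list (35.5% of all genes) and at 9 in the male list (37.8% of all genes). Neither mark was at the start of 1 gene, Sema5a, in the female list (31.5% of all genes), and of 0 genes in the male list (33.4% of all genes). With H3K4Me1 taken in as well, 32 of the 48 genes (66.7%) had the same combination in the female and the male list, and so did 77.5% of all genes.

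**Figure D2:**
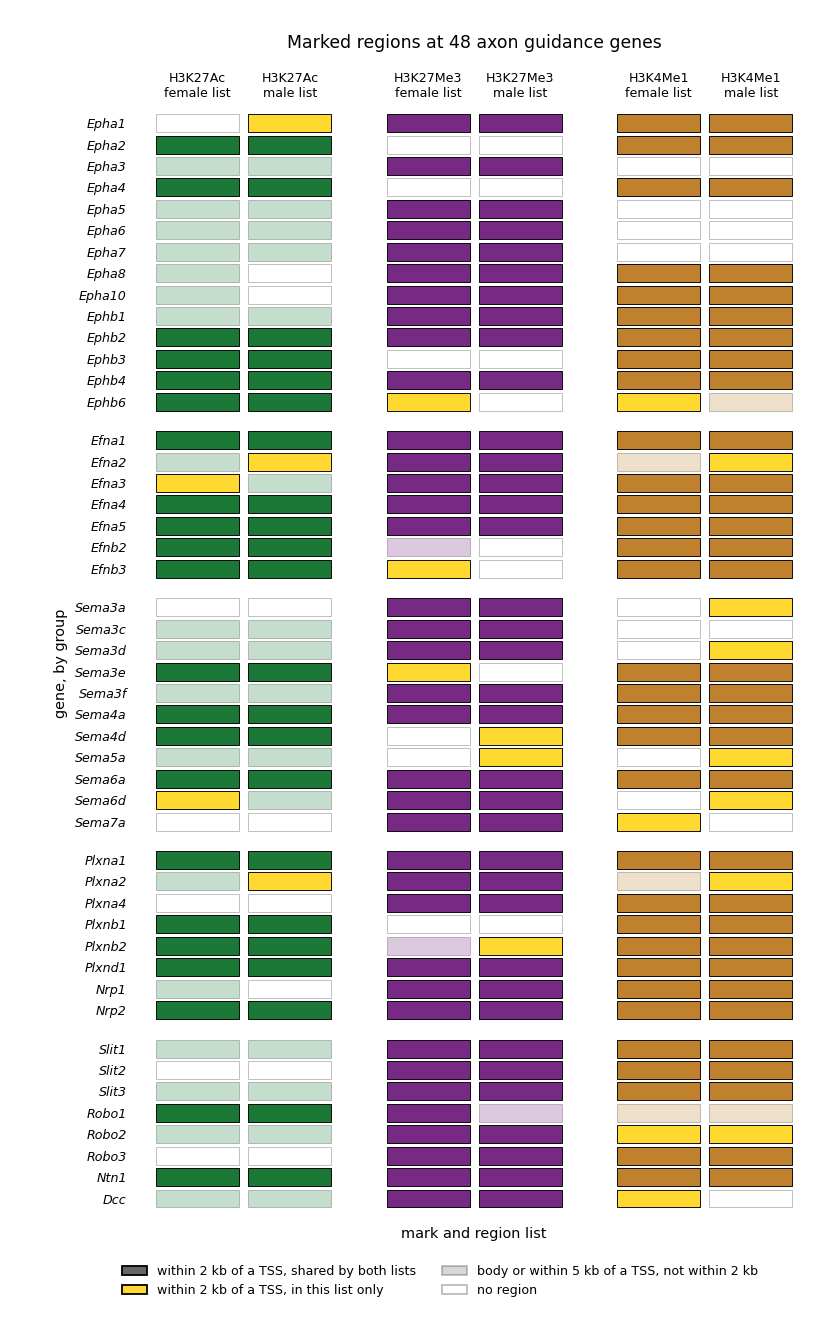
Presence of each mark in the female list (left column of each pair) and the male list (right column) at the 48 genes, which run down the page by group. Full colour stands for at least 1 region within 2 kb of a TSS that overlaps a region of the other list. Yellow stands for starts where every such region was in that list alone. An unshared region beside a shared one at the starts of the same gene, as for H3K27Ac at Sema4d, is therefore not yellow. Pale colour stands for regions elsewhere in the body or within 5 kb of a TSS, and white for none. The H3K27Me3 columns are filled at 40 starts in the female list and 39 in the male list, and Epha3, Epha5, Epha6, Epha7 and Sema3c show H3K27Me3 alone at the start in both lists.

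The genes are long, with a median length of 138 kb against 15.4 kb over all genes, so that a region had more room to fall in their bodies, and the part of length in the counts that follow was not tested. Over the whole window, body or within 5 kb of a TSS, H3K27Ac was present at 42 genes in the female list (58.8% of all genes) and 40 in the male list (58.3% of all genes). H3K27Me3 was present at 42 genes in the female list (40.5% of all genes) and at 40 in the male list (35.4% of all genes). H3K4Me1 was present at 39 genes in the female list (67.0% of all genes) and at 41 in the male list (65.4% of all genes). H3K27Ac was in the female list only at 3 genes, Epha8, Epha10 and Nrp1 (3.1% of all genes), while Epha1 was the 1 gene with it in the male list only (2.55% of all genes). H3K27Me3 was in the female list only at 4 genes, Ephb6, Efnb2, Efnb3 and Sema3e (8.9% of all genes), while 2, Sema4d and Sema5a, had it in the male list only (3.8% of all genes). Sema7a and Dcc had H3K4Me1 in the female list only (4.54% of all genes), and Sema3a, Sema3d, Sema5a and Sema6d had it in the male list only (2.96% of all genes).

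A region is called female-only or male-only where the opposite list held nothing of that mark within it, not even 1 bp. At least 1 female-only H3K27Ac region was found at 14 genes (12.4% of all genes) and at least 1 male-only at 12 (7.99% of all genes). For H3K27Me3 the counts were 16 genes with a female-only region (15.6% of all genes) and 8 with a male-only region (7.55% of all genes). For H3K4Me1 they were 14 genes for each kind, against 21.4% of all genes for female-only and 11.5% for male-only regions. Counted by region, 32.1% of the H3K27Me3 regions of the female list at these genes were female-only, against 39.8% in the whole list, and 14.9% of those of the male list were male-only, against 23.6%. The female list of each mark was the longer, with 18534 H3K27Me3 regions against 15138 in the male list. It also covered more bases, 111.2 Mb against 89.2 Mb for H3K27Me3, 144.0 Mb against 135.2 Mb for H3K27Ac and 286.6 Mb against 275.8 Mb for H3K4Me1. The coverage values of single genes given below were not adjusted for this. When the longer list of a mark was trimmed to the length of the shorter, by width, only the female list lost regions. By that step alone, female-only counts could not rise and male-only counts could not fall. The regions at these genes were then 15 female-only and 24 male-only for H3K27Ac, against 18 and 13 in the full lists, so that their order depended on the trimming. For H3K27Me3 they were 20 and 14, against 27 and 11, and for H3K4Me1 13 and 29, against 20 and 21.

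The unshared regions were narrower than the shared ones, as in the whole lists, and mostly away from starts. The 27 female-only H3K27Me3 regions had a median width of 3.20 kb, against 7.00 kb for the 57 shared ones of the female list. Over the whole female list these medians were 3.00 and 5.60 kb. Of the 27 regions, 15 lay within an intron. Of the 18 female-only and 13 male-only H3K27Ac regions, 11 and 9 lay within an intron and 3 of each came within 2 kb of a TSS. For H3K4Me1, 7 of the 20 female-only and 7 of the 21 male-only regions came within 2 kb of a TSS. Shared H3K4Me1 regions were also mostly away from starts, with 39 of 106 in the female list and 43 of 104 in the male list within 2 kb. For shared H3K27Ac regions these were 25 of 67 and 26 of 66. Shared H3K27Me3 regions were mostly near starts, with 40 of 57 and 42 of 63 in these lists. The limit of 2 kb left regions close on either side. H3K4Me1 regions 1.85 kb from a TSS at Ephb2 and 1.93 kb at Robo2 fell inside it, and those 2.16 kb away at Plxnd1 and 2.22 kb away at Plxna2 fell outside.

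Among the Eph receptors, most starts carried the same marks in the female and the male list. Epha3, Epha5, Epha6 and Epha7, A-class receptors that bind GPI-anchored ephrins, had H3K27Me3 and no other mark at the start in both. Their H3K27Me3 coverage was 6.00, 5.0, 6.20 and 6.20 kb in the female list, against 8.38, 5.0, 6.60 and 4.40 kb in the male list. Epha8, Epha10 and Ephb1 carried H3K27Me3 with H3K4Me1 in both lists. Epha10, whose kinase domain is inactive, had the largest difference in H3K27Me3 among the receptors, with 35.9 kb covered in the female list and 27.1 kb in the male list. It held 2 female-only H3K27Me3 regions over exons, chr4:124581601-124584599 and chr4:124586401-124591599, and a female-only H3K27Ac region over an exon at chr4:124582801-124584399, inside the first of them.

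Epha2, Epha4 and Ephb3 were the receptors with H3K27Ac and H3K4Me1 at the start and no H3K27Me3 region anywhere in the window in either list. Epha4, which binds ephrins of both classes, had 8 H3K27Ac regions and 70.0 kb covered in the female list, against 4 regions and 54.8 kb in the male list. Of its 4 female-only H3K27Ac regions, the widest ran over 14.8 kb of an intron at chr1:77404801-77419599. The others were chr1:77369801-77371799, chr1:77392601-77393399 and chr1:77431601-77432999. All 4 overlapped H3K4Me1 regions of both lists, and a male-only H3K27Ac region lay nearer the start, at chr1:77498201-77501199 in an intron. Epha2 was covered by 19.6 kb of H3K27Ac in the female list and 21.0 kb in the male list, and Ephb3 by 11 kb and 11.6 kb in these lists.

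Ephb6, a receptor whose kinase is inactive, and Epha1 differed at the start itself. At Ephb6, H3K27Ac covered 1.40 kb in the female list and 1.80 kb in the male list. A female-only H3K27Me3 region, chr6:41553801-41557999, and a female-only H3K4Me1 region, chr6:41553201-41556999, both held a TSS and took in the promoter printed above. At Epha1, the male list had an H3K27Ac region over the first kilobases of the gene, chr6:42321201-42323199, which the female list lacked. That stretch lay under H3K27Me3 in the female list alone, in a region of 16.2 kb, while the male H3K27Me3 region of 7.00 kb lay wholly upstream of the 5′ end. Ephb2, a B-class receptor, had the largest H3K4Me1 difference of the receptors, 110 kb covered in the female list and 97.7 kb in the male list, and a female-only H3K4Me1 region at chr4:136251801-136256199. Ephb4, the receptor of venous endothelium, held H3K27Ac and H3K27Me3 together at the start in both lists.

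The ephrins often had H3K27Ac and H3K27Me3 together, at 5 of 7 starts in the female list (15.0% of all genes) and 4 of 7 in the male list (12.7% of all genes). The plexins and neuropilins had them together at 3 of 8 starts in the female list and 5 of 8 in the male list. Efna1, Efna4 and Efna5, GPI-anchored ligands, carried all 3 marks at the start in both. Efna3 and Efna2 differed in opposite directions. At Efna3, a female-only H3K27Ac region of 6.80 kb, chr3:89121201-89127999, held a TSS, and the gene was covered by 9.49 kb of H3K27Ac in the female list and 1.49 kb in the male list. At Efna2, a male-only H3K27Ac region, chr10:79640401-79642999, and a male-only H3K4Me1 region, chr10:79640601-79645599, held the TSS. H3K27Me3 lay over both starts in both lists. Of the whole window it covered 12.1 kb at Efna3 in the female list and 10.9 kb in the male list. At Efna2 it covered 15.5 kb in the female list and 13.4 kb in the male list. Efna3 and Efna4 are neighbours and shared 1 H3K4Me1 region, 29.0 kb wide in the female list and 28.8 kb in the male list. At Efna4 a female-only H3K27Me3 region, chr3:89143801-89148799, came within 2 kb of the TSS and held a TSS of the gene Adam15.

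Efnb2, the ephrin of arterial endothelium, had H3K27Ac and no H3K27Me3 at the start in both lists, and a female-only H3K27Me3 region of 5.60 kb over an exon at chr8:8618401-8623999. Efnb3 had a female-only H3K27Me3 region holding its TSS, chr11:69370601-69373999, which overlapped H3K27Ac regions of both lists. Efna5 had the largest H3K27Ac difference of the ephrins, 5.0 kb covered in the female list and 17.4 kb in the male list. It was also the ephrin with the largest H3K4Me1 difference, 18 kb in the female list and 26.4 kb in the male list. A male-only H3K27Ac region at Efna5, chr17:63136201-63139599, lay in an intron.

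**Figure D3:**
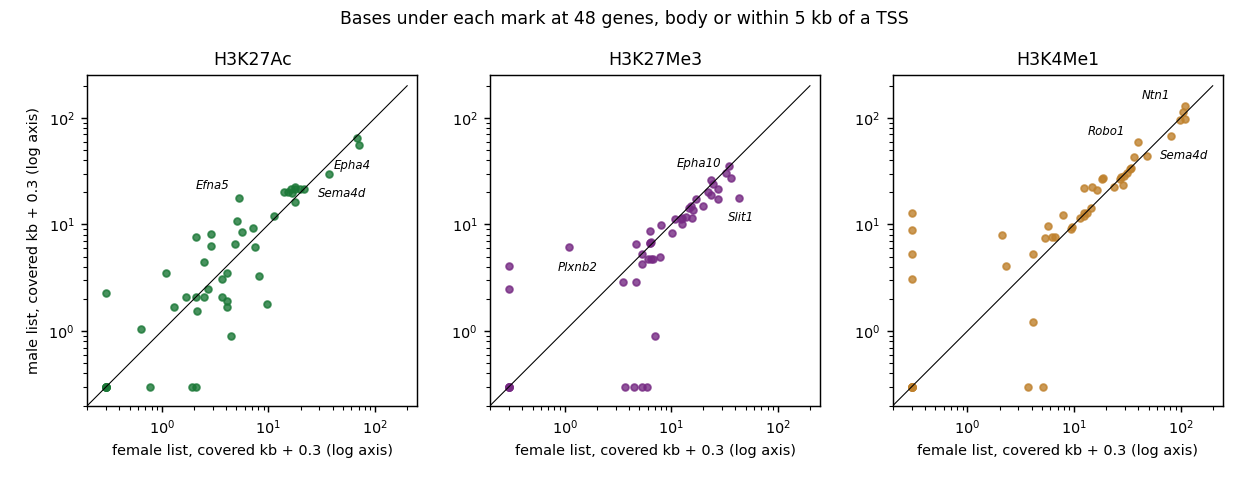
Kilobases covered by each mark at the 48 genes (body or within 5 kb of a TSS) in the female list (x axis) and the male list (y axis), with 0.3 kb added to both so that a value of 0 can be drawn on the log axes. Each point is 1 gene and the line marks equal coverage. Slit1 (42.7 kb in the female list, 17.6 kb in the male list) lies far below the line for H3K27Me3 and Efna5 (5.0 kb and 17.4 kb) far above it for H3K27Ac. Over the whole genome, H3K27Me3 covered 111.2 Mb in the female list and 89.2 Mb in the male list, and the line does not allow for this.

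The semaphorins held the most starts whose combination of marks differed between the lists, 7 of 11, where 77.5% of all genes had the same combination in both. Some of these genes have many annotated TSSs, with 13 at Sema4d and 7 each at Sema3a and Sema6d, and the part of this was not tested. Sema4d, a transmembrane ligand of Plxnb1, had a female-only H3K27Ac region that held a TSS, chr13:51887201-51889599. It overlapped a male-only H3K27Me3 region just inside the gene, chr13:51886601-51888799, by 1.60 kb. This was the only place at these 48 genes where a female-only region of H3K27Ac and a male-only region of H3K27Me3 overlapped, and there was none with the lists exchanged. That count leaves out H3K27Me3 regions that meet the other list elsewhere along their length. A female-only H3K27Ac region at Plxna2 overlapped H3K27Me3 of the male list and not of the female list. Male-only H3K27Ac regions at Epha1 and Sema3f overlapped H3K27Me3 of the female list and not of the male list. H3K27Ac covered 36.8 kb of Sema4d in the female list and 29.6 kb in the male list, and H3K4Me1 81.3 kb and 68.0 kb in these lists. Sema5a, a transmembrane semaphorin with thrombospondin repeats, had no mark at its start in the female list. In the male list a male-only H3K27Me3 region, chr15:32174601-32177399, and a male-only H3K4Me1 region, chr15:32172401-32177399, both held a TSS.

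Among the secreted class 3 semaphorins, Sema3e, a ligand that binds Plxnd1, carried 2 female-only H3K27Me3 regions near its start. They were chr5:14025601-14029199 over an exon and chr5:14030001-14031399 in an intron, and together covered 5.0 kb, where the male list had 0 kb. H3K27Ac was at the start of Sema3e in both lists, and covered 21.4 kb of its whole window in the female list and 21.0 kb in the male list. Sema3a and Sema3d had H3K27Me3 at the start in both lists and H3K4Me1 in the male list alone, in regions that held a TSS, an inner one at Sema3a, at chr5:13395801-13400799 and chr5:12382601-12385399. Sema3c had H3K27Me3 alone at the start in both lists, over 4.40 kb in the female list and 2.60 kb in the male list. Sema3f had H3K27Me3 and H3K4Me1 at the start in both lists, and H3K27Me3 covered 23.2 kb of its whole window in the female list and 18.6 kb in the male list.

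Of the other semaphorins, Sema7a, which is GPI-anchored, carried a female-only H3K4Me1 region over its TSS, chr9:57785601-57790399, beside H3K27Me3 in both lists (14.3 kb in the female list, 14 kb in the male list). Sema6d had a female-only H3K27Ac region, chr2:123970401-123972999, overlapped by a male-only H3K4Me1 region, chr2:123969801-123972199, both in an intron near an inner TSS. Sema4a, with 17 annotated TSSs, had a female-only H3K4Me1 region upstream at chr3:88267001-88269399 and all 3 marks at its starts in both lists. Sema6a also carried all 3 marks at its starts in both lists, with H3K27Ac over 4.60 kb in the female list and 6.20 kb in the male list.

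Of the 6 plexins, 5 had an H3K27Me3 region in both lists over the whole window (31.6% of all genes). Plxnb1, the Sema4d receptor, had no H3K27Me3 region in either list, and its H3K27Ac coverage was 4.80 kb in the female list and 10.4 kb in the male list. Plxnb2 had H3K27Ac at the start in both lists, over 14.8 kb in the female list and 19.999 kb in the male list. A male-only H3K27Me3 region, chr15:89000601-89006399, held an inner TSS of Plxnb2. The female list covered 0.791 kb of the gene window with H3K27Me3, in a region over 2 kb from every TSS. Plxna4 had no H3K27Ac region in either list, and H3K27Me3 over 23.4 kb in the female list and 25.6 kb in the male list. Plxna1 had all 3 marks at the start in both lists and the largest H3K27Ac difference of its group, 13.6 kb in the female list and 19.995 kb in the male list, where a male-only region lay over an exon at chr6:89287201-89290199.

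At Plxna2, a receptor for class 3 and class 6 semaphorins, the unshared regions of the female list lay upstream and those of the male list over or beyond the 5′ end. The female-only H3K27Ac region, chr1:196442001-196442999, and the female-only H3K4Me1 region, chr1:196442001-196443799, were outside the 2 kb limit. The male-only H3K27Ac region, chr1:196445601-196446999, and the male-only H3K4Me1 region, chr1:196445201-196450799, held the TSS, and a further male-only H3K4Me1 region, chr1:196451201-196453199, lay in an intron. H3K27Me3 lay at the start in both lists, with 9.80 kb in the female list and 8.0 kb in the male list. Plxnd1 carried all 3 marks at the start in both lists, and H3K27Ac covered 2.60 kb of it in the female list and 6.00 kb in the male list.

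The neuropilins, co-receptors of the class 3 semaphorins, differed from each other in H3K27Ac in both lists. Nrp2 had 6 H3K27Ac regions covering 67.6 kb in the female list and 9 covering 64.0 kb in the male list. Nrp1 had 1 H3K27Ac region, of 1.80 kb, in the female list and 0 in the male list. Both carried H3K27Me3 at the start. Over the whole window it covered 10.6 kb and 14.9 kb for Nrp1 and Nrp2 in the female list, and 11 kb and 14.6 kb in the male list.

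In the Slit, Robo, netrin and Dcc group, Slit1 had the largest difference in H3K27Me3 coverage of all 48 genes. It held 8 H3K27Me3 regions over 42.7 kb in the female list and 4 over 17.6 kb in the male list. Its 5 female-only H3K27Me3 regions were centred between 77.3 and 112 kb downstream of the 5′ end. They were chr19:41703001-41709399, chr19:41722601-41727799, chr19:41728801-41733399, chr19:41735001-41738199 and chr19:41739001-41742799. A male-only H3K27Me3 region of 1.80 kb, chr19:41794201-41795999, lay nearer the start. At the start of Slit1 itself H3K27Me3 and H3K4Me1 were present in both lists.

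Slit3 also held more female-only than male-only H3K27Me3 regions, 5 and 2, with 27.4 kb covered in the female list and 17.0 kb in the male list. One of the 5, chr11:34932601-34939199, held a TSS. A female-only H3K4Me1 region, chr11:34935201-34939399, overlapped it by 4.0 kb. Slit2 had a single H3K27Me3 region of 5.0 kb in the female list and of 4.0 kb in the male list, both at a start, and no H3K27Ac in either list. Robo3, which modulates the response of commissural axons to Slit in mammals, was covered by 24.2 kb of H3K27Me3 in the female list and 23.8 kb in the male list, with no H3K27Ac region in either.

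Robo1 was the Robo receptor with H3K27Ac at the start, in both lists, and with 2 male-only H3K27Ac regions in introns, chr16:72687201-72689399 and chr16:72692601-72696199. Its H3K27Ac coverage was 17.4 kb in the female list and 22.4 kb in the male list, and its H3K4Me1 coverage was 39.6 kb and 58.8 kb in these lists. H3K27Me3 was at the start of Robo1 in the female list, where it covered 6.80 kb of the window, and not in the male list, where it covered 0.599 kb. Robo2 had H3K27Me3 at the start in both lists, a male-only H3K4Me1 region over the 5′ end, chr16:74410201-74413999, and a female-only one near an inner TSS, chr16:73896201-73898199. Dcc, the netrin receptor, had H3K27Me3 at the start over 6.00 kb in the female list and 6.4 kb in the male list. Its female-only H3K4Me1 region, chr18:72508001-72511399, held the TSS. Ntn1, the ligand of Dcc, carried all 3 marks at the start in both lists. Over its whole window H3K27Ac covered 17.6 kb in the female list and 21.0 kb in the male list, and H3K4Me1 109 kb and 128 kb in these lists.

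**Figure D4:**
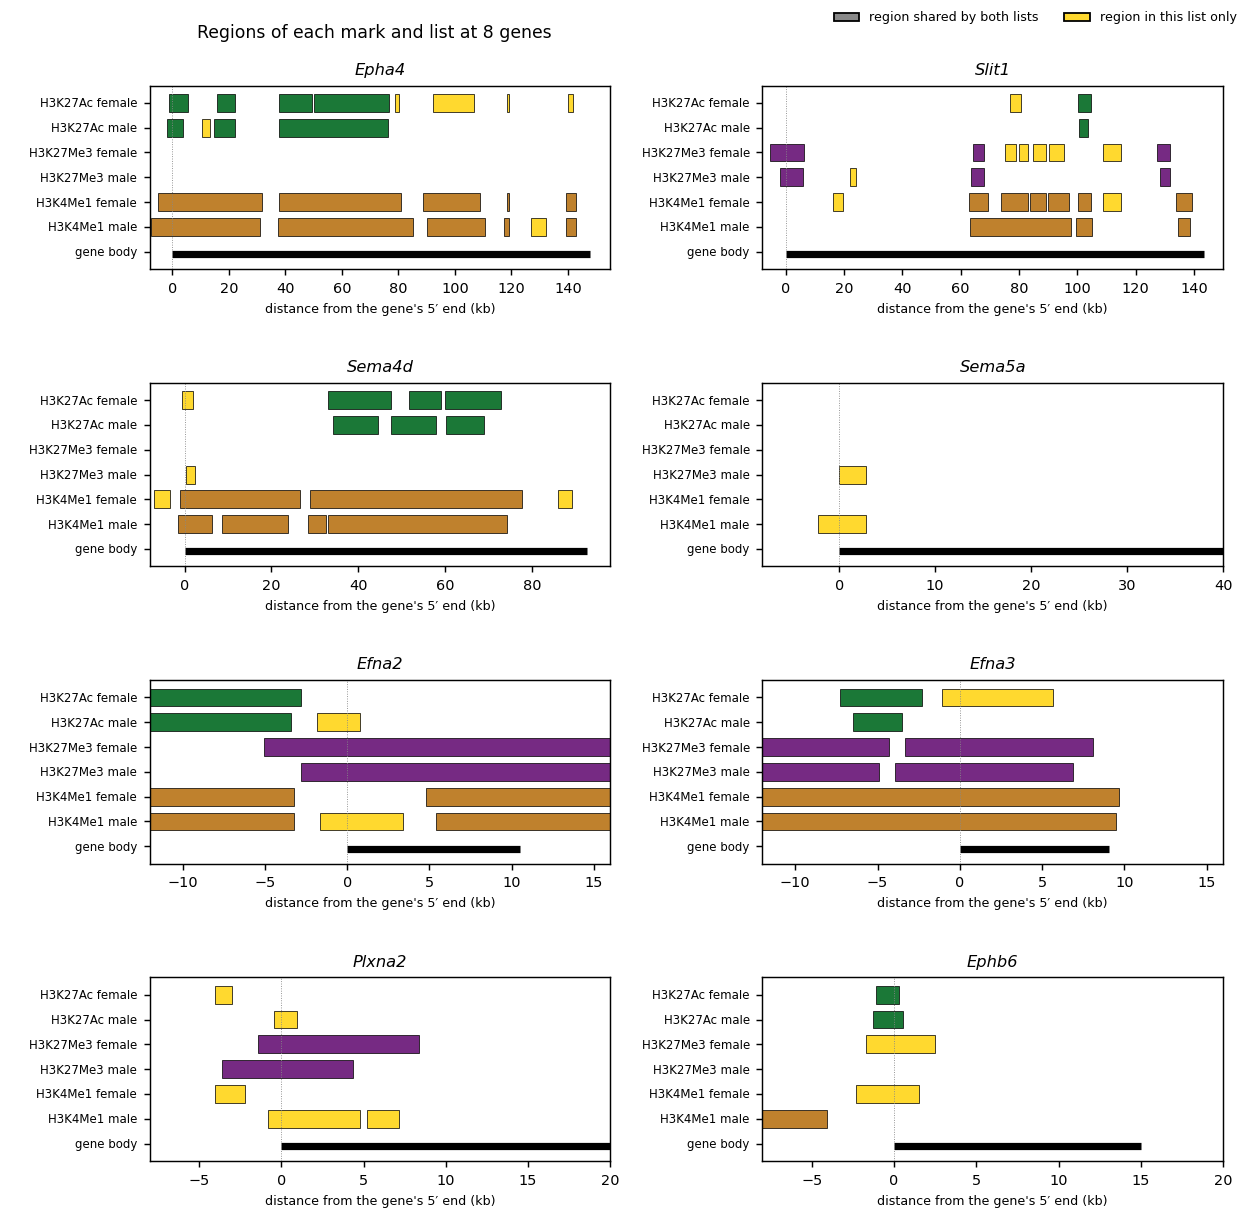
Regions of the 3 marks in the female list (upper track of each pair) and the male list (lower track) at 8 genes, by distance from the 5′ end of the gene in kb (x axis), with the gene body as a black bar, cropped at Sema5a and Plxna2. Coloured blocks overlap a region of the other list and yellow blocks do not. At Sema4d a yellow female H3K27Ac block sits at the 5′ end above a yellow male H3K27Me3 block, and at Slit1 the 5 yellow female H3K27Me3 blocks are centred between 77.3 and 112 kb.

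In the genes that pair as ligand and receptor, the marks of both partners can be read side by side. Only some pairs are given here as examples. H3K27Ac was at the start of 50.6% of all genes in the female list and 50.5% in the male list. Whether partners matched more often than other genes was not tested. Sema4d and its receptor Plxnb1 both had H3K27Ac at the start in both lists, and so did Efnb2 and its receptor Ephb4. For Sema4d in the male list this held through inner TSSs alone, since H3K27Ac at its 5′ end was female-only. Ephb4 also carried H3K27Me3 at the start in both lists. Netrin and Dcc differed, with H3K27Ac at the start of Ntn1 in both lists and of Dcc in neither. Slit1, Slit2 and Slit3 had no H3K27Ac at the start in either list, and of their receptors Robo1 had it in both.

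Other genes of the pathway were counted from a list of 55, of which 54 were found. H3K27Me3 was at the start of 37 of these in the female list (68.5%, against 32.9% of all genes) and of 32 in the male list (59.3%, against 28.8%). H3K27Ac was near the share of all genes, at 29 starts in the female list (53.7%, against 50.6%) and 30 in the male list (55.6%, against 50.5%). H3K4Me1 was at 45 starts in the female list (83.3%, against 60.6%) and 47 in the male list (87.0%, against 59.4%). Unc5a, Unc5c and Unc5d, netrin receptors that mediate repulsion, had H3K27Me3 and no H3K27Ac at the start in both lists. Unc5b, of the same family, had H3K27Me3 at the start in both lists and H3K27Ac there in the male list. Rhoa, a cytoskeletal GTPase that acts downstream of these receptors, had H3K27Ac and no H3K27Me3 at the start in both. Over the whole window, H3K27Me3 was absent from the male list and present in the female list at 7 of the 54 genes (13.0%, against 8.9% of all genes), among them the GTPases Rac1 and Cdc42, and the reverse held at 0 (against 3.8% of all genes).

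The lists were also read at marker genes of the cells that the cultures could hold. Of 9 ES cell markers found, H3K27Ac was at the start of 9 in each list (50.6% of all genes in the female list and 50.5% in the male list). Of 10 fibroblast markers, which the feeder cells express, H3K27Ac was at the start of 2 in the female list (50.6% of all genes). In the male list it was at the start of 4 (50.5% of all genes). H3K4Me1 was at the start of 3 and 6 in these lists (60.6% and 59.4% of all genes). Over the whole window H3K27Ac was at 2 of the 10 in the female list, Col5a1 and Lum (58.8% of all genes). It was at 5 in the male list, Col5a1, Lum, Col1a1, S100a4 and Twist2 (58.3% of all genes). In the male list it covered 9.71 kb of S100a4, 7.00 kb of Twist2 and 2.60 kb of Col1a1, against 0 kb of each in the female list. H3K27Me3 was at the start of 6 of the 10 in the female list and 5 in the male list (32.9% and 28.8% of all genes). It covered 18.3 kb of Col1a1 and 12.8 kb of Twist2 in the female list, and 19.6 kb and 9.36 kb in the male list. At S100a4 it covered 0 kb in both. Col1a2, Col3a1, Thy1, Postn and Dcn had no H3K27Ac region in either list, and Dcn had a male-only H3K4Me1 region. Of 8 primitive endoderm markers, H3K27Ac was at the start of 1 in the female list and 2 in the male list (50.6% and 50.5% of all genes). The paper describes the feeders as a mix of male and female cells, depleted before harvest to a small residue. What part feeder or differentiating cells had in the regions found in the male list alone was not tested.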

How the data were processed

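ChIP-seq of 3 histone marks was analysed from the 6 region lists that the authors deposited, which give positions in mm9 without any value, so depth and precision are unknown. Alignment was with Bowtie2 and intervals were handled with Bedtools per the methods, while Bowtie and deepTools are listed in the processing notes of the submitters. For the caller, its threshold, its use of IgG and input and the pooling of lines, the entry is: not given in the sources used here. Regions start on a grid of 200 bp. They were assigned to genes of GENCODE M1 on NCBIM37, the assembly of mm9, with counts checked against bedtools 2.31.1 and interval functions tested on simulated data. Of 2 models named Efna5 the longer was used. Regions sharing at least 1 bp were called shared. RefSeq promoters of build GRCm38.p6 were placed in mm9 by exact match.

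With 1 list per sex and mark, groups were described by counts and coverage without tests. Coordinates were given for members with a region in 1 list alone within 2 kb of a TSS, and for the member of each group with the largest difference in coverage per mark. Promoters were printed for some of these. The alternatives were 2 narrower windows, protein-coding transcripts alone, 3 limits on the lists, 2 other definitions of a shared region and a background of autosomal genes. The members and lists were chosen with earlier results of these data known.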

Additional observations from a re-analysis of the deposited data

How the results depend on the processing

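No paired analysis was possible because each sex and mark has 1 list and no replicate. Of 120 counts under alternatives, 37 moved by more than 1.5 times. With windows of 2 kb around TSSs alone, 24 genes had H3K27Ac in the female list and 25 in the male list, 3 of them in the male list only. H3K27Ac then had 3 female-only and 3 male-only regions, H3K27Me3 had 5 and 3, and H3K4Me1 had 7 and 7. With 5 kb, 27 genes had H3K27Ac in the female list and 26 in the male list, and the regions were 6 and 3, 8 and 3, and 11 and 7 for the marks in the same order. In the widest 50% of each list, H3K27Ac was at 23 genes in each list and at 3 in the male list only, H3K27Me3 at 0 in the male list only and H3K4Me1 at 1 in the female list only. H3K27Ac then had 8 female-only and 6 male-only regions, H3K27Me3 had 11 and 5, and H3K4Me1 had 8 and 12. With equal numbers of regions per mark, 5 genes had H3K27Ac in the male list only, male-only H3K27Ac regions were 24 and female-only H3K4Me1 regions 13. With regions of 1 kb or wider, 2 genes had H3K27Ac in the male list only. With a reciprocal overlap of 50%, the unshared regions were 29 female-only and 23 male-only for H3K27Ac, 30 male-only for H3K27Me3, and 54 female-only and 52 male-only for H3K4Me1. The cause was not tested beyond the narrower windows, shorter lists and stricter overlap that these settings impose. At the genes given coordinates, female-only minus male-only regions changed sign 4 times, all in the widest 50%: to 1 for H3K27Ac at Plxna1, and to -1 for H3K4Me1 at Ephb6, Sema4a and Slit3. Autosomal genes alone moved no background by more than 2.2 percentage points. Unknown depth limits every absence, since a region missing from a list may be weak and not absent.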

Other observations

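Efnb1, the X-linked ephrin B gene outside the 48, had H3K27Me3 over 17.3 kb in the female list and 6.33 kb in the male list, with a region at the start in the female list alone. Unc5b, a netrin receptor with a role in vessels, had H3K27Me3 over 46.5 kb in the female list and 27.7 kb in the male list, and H3K27Ac over 26.4 kb and 39.2 kb in these lists. Ntng2, a membrane-bound netrin, had H3K27Me3 over 38.1 kb in the female list and 20.5 kb in the male list. At Rac1, H3K27Ac covered 3.00 kb in the female list and 12.4 kb in the male list, and H3K27Me3 3.10 kb and 0 kb. These genes were chosen after their values were seen.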
